A study of Homo sapiens with 12 samples.

Results

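The genes described here are 40 interferon-stimulated antiviral effectors and regulators, taken by symbol from a count table of 23398 entries, of which 23274 were analysed. The list leaves out the IFIT, IFITM and OAS families, the sensors of viral nucleic acid and the genes of antigen presentation, which are given only as context. All 40 members were in the table, and all 40 passed the filter on low counts, as did 14324 genes in all. The RNA came from human brain microvascular endothelial cells (HBMEC), bought from Cell Systems, the cell type that forms the blood-brain barrier. Every culture carried a siRNA for 48 hours. It was either a non-silencing siRNA (labelled Non-silence) or siGlut1, which targets the glucose transporter gene SLC2A1, and the medium was either control or HighGlucose. That gives 4 groups with 3 replicate numbers each. The glucose concentrations, the time in high glucose, the siRNA sequences and the number of donors are not stated in the labels. No untransfected cells were among the groups, and a single label stands for siGlut1, so loss of the transporter and any other effect of that siRNA cannot be told apart. Nothing in the labels says that replicates were separate cultures, so p-values measure the spread between these libraries, which may be technical.

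Type I interferons bind a receptor on the cell surface, and Janus kinases then switch on transcription factors. A complex that holds IRF9 binds a DNA element with repeated GAAA units, the interferon-stimulated response element, and activates many antiviral genes. Endothelial cells carry the receptor, and their products act on viral entry, replication, protein modification and release, or recruit lymphocytes to the vessel wall.

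Deposited counts summed to between 40114460 and 90496628 per library (median 49661312), and all counts in the 11 libraries used were even numbers. The column for non-silencing siRNA in high glucose, replicate 2, equalled the mean of replicates 1 and 3 in 23397 of 23398 entries and for all 40 members, so that group has n = 2. SLC2A1 stood at 23.9 ± 1.74 CPM (counts scaled to library size; mean and SD, n = 3) with non-silencing siRNA in control glucose and at 7.96 ± 1.49 (n = 3) with siGlut1. In high glucose it stood at 20.9 ± 0.395 (n = 2) and 6.89 ± 0.443 (n = 3), so it was lower in every siGlut1 library. All 12 endothelial markers were expressed, among them PECAM1 at a mean of 908 CPM and CDH5 at 1717 CPM. With siGlut1, edgeR called 0 of the 12 higher in control glucose and 2 in high glucose, and DESeq2 called 2 in each medium. The summed endothelial list ranged over 6763 to 9858 CPM with non-silencing siRNA and 7819 to 9729 CPM with siGlut1 in control glucose. In high glucose the ranges were 7777 to 7911 and 8169 to 9543 CPM. Of 12 microglia and leukocyte markers 2 passed the filter, PTPRC averaged 0.033 CPM, and TYROBP, CD3E, CLEC4C and LILRA4 were at 0 in all libraries. The summed leukocyte markers, mostly CD68, ranged over 39.5 to 58.6 CPM with non-silencing siRNA and 48.0 to 73.8 CPM with siGlut1 in control glucose, and over 46.2 to 49.2 and 49.0 to 61.1 CPM in high glucose. Of 8 pericyte and mural markers 5 passed the filter. PDGFRB averaged 0.166 CPM, while the gene of this list with most counts held 1177180 over all libraries used. RGS5 fell by 0.34 on the log2 scale with siGlut1 in control glucose (edgeR, adjusted p = 0.0484), and edgeR called 0 in high glucose. DESeq2 called 1 higher and 1 lower in each medium. The summed mural list ranged over 3612 to 3914 CPM with non-silencing siRNA and 3548 to 3675 CPM with siGlut1 in control glucose. In high glucose these ranges were 4070 to 4097 and 3607 to 3945 CPM, which do not overlap. Of 6 neuron markers 4 passed. TUBB3 rose with siGlut1 in high glucose (edgeR, log2 0.66, adjusted p = 0.0407), STMN2 was at 0, and RBFOX3 averaged 0.0658 CPM. In control glucose edgeR called 0 of the 4, while 1 had an unadjusted p under 0.05, with a positive value. DESeq2 called 1 of the 4 higher in each medium. The summed neuron list ranged over 139 to 145 and 183 to 189 CPM in control glucose, and 116 to 136 and 150 to 180 CPM in high glucose. Summed fibroblast, astrocyte and epithelial markers ranged over 7.45 to 41.3, 346 to 445 and 276 to 389 CPM over all libraries. Of their tested genes 0 were called in either medium with edgeR or DESeq2. The part of all these markers in the results below was not tested.

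With siGlut1 in control glucose, 17 of the 40 members rose and 0 fell (edgeR quasi-likelihood test, Benjamini-Hochberg adjusted over all genes, threshold 0.05; n = 3 and 3). Over all genes tested, 1.7% were called higher, which is 244 genes, against 180 called lower. The members' median log2 fold change was 0.78, or 1.72-fold, beside a median of -0.00668 over all genes, and 13 members were at least 2-fold higher. Of the 40, 39 had a positive value, and 35 had an unadjusted p under 0.05, all of them positive, as did 17.4% of all genes in either direction. In 34 members every siGlut1 library lay above every non-silencing library, which 11% of all genes also did. DESeq2 called 28 members higher and 0 lower, with 4.18% of the genes it tested called higher. Those it added were HERC5, IFI35, DTX3L, SAMD9, SAMD9L, SP110, DDX60, ADAR, LGALS3BP, CXCL10 and CXCL11. In high glucose 13 members rose and 0 fell with edgeR (n = 2 and 3), and 25 and 0 with DESeq2. There edgeR called 2.47% of all genes higher, which is 354 genes, and DESeq2 called 5.76%. The members DESeq2 added were USP18, PARP9, PARP14, DTX3L, SAMD9, SAMD9L, SP110, DDX60, BST2, PLSCR1, CXCL10 and CXCL11. Below, passing refers to edgeR unless DESeq2 is named. The members' median was 0.65, or 1.57-fold, 36 values were positive, and 29 had an unadjusted p under 0.05 (20.8% of all genes), with TNFSF10 the single one of these with a negative value. The groups did not overlap in 30 members that were higher and in TNFSF10, which was lower, beside a share of 22.6% of all genes whose siGlut1 libraries lay wholly above. In these bulk libraries, more responding cells and more RNA per cell cannot be told apart.

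Of the members, 12 rose in both media, namely MX1, MX2, RSAD2, CMPK2, ISG15, HERC6, UBE2L6, IFI44L, IFI6, IFI27, EPSTI1 and XAF1. They are 70.6% of the members called in control glucose and 92.3% of those called in high glucose. Over all genes, 156 were called higher in both media, or 63.9% and 44.1% of the respective lists. The comparisons in the 2 media share no library, but all 4 groups were fitted together with a shared estimate of the spread. The calls in the 2 media are therefore not independent. Leaving out siGlut1 high replicate 2, for example, changed the control-glucose calls from 17 to 24. USP18, IFI44, PARP9, BST2 and PLSCR1 passed in control glucose alone, ADAR passed in high glucose alone, and 22 members passed in neither.

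**Figure D1:**
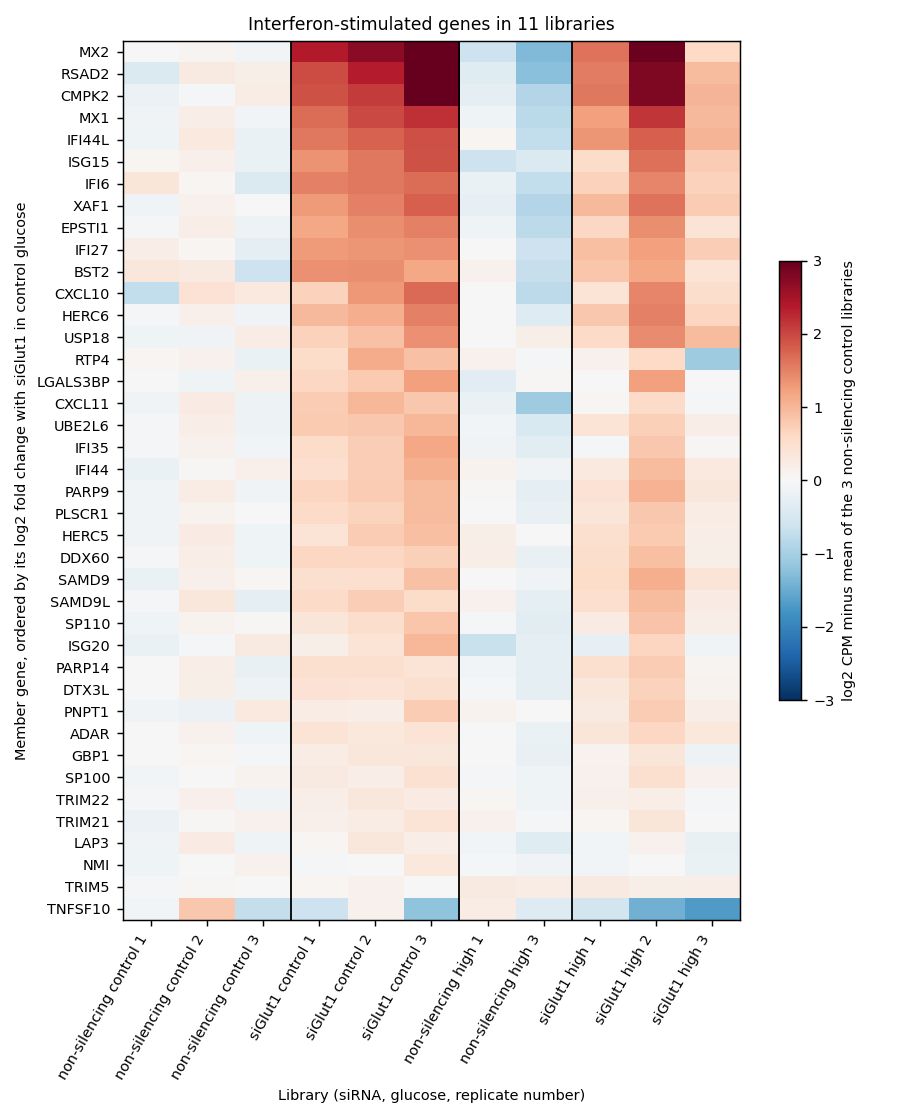
Level of each member (rows, ordered by fold change in control glucose) in each of the 11 libraries (columns), as log2 CPM minus the mean of the 3 non-silencing control-glucose libraries; the colour scale ends at 3 in either direction. The siGlut1 columns are red for the upper rows in both media, most in siGlut1 control 3 and siGlut1 high 2, while TNFSF10 at the bottom is blue in 5 of the 6 siGlut1 columns.

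Promoter sequence was available in the RefSeq table (GRCh38.p14, 250 bases before to 50 after each start) for 37 of the 40 members, all but MX2, USP18 and TRIM22. A core of the response element was searched on both strands as GAAA, then any 2 bases, then GAAA. It was found in 26 of the 37 members (70.3%) and in 4.38% of all 27305 genes in that table. Counted by window, 30 of 52 member windows (57.7%) held it, beside 3.57% of all 35116 windows of the same length. Some matches are the same stretch of DNA counted more than once. PARP9 and DTX3L, on opposite strands, share the same match. The 2 windows each of IFI27, IFI44 and PLSCR1 overlap and hold the same stretch. RSAD2, MX1 and IFI44L, at ranks 2, 4 and 5 of the members by log2 fold change in control glucose, hold this word but are not shown. The following stretches hold it upstream of genes from rank 6 (ISG15) to rank 40 (TNFSF10). Each runs 5′ to 3′ on the strand of the gene, and capitals mark the word or its reverse complement, with overlapping matches run together.
ISG15, chr1:1013364-1013419, plus strand: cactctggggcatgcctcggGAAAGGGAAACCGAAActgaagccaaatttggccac
IFI6, chr1:27672256-27672368, minus strand: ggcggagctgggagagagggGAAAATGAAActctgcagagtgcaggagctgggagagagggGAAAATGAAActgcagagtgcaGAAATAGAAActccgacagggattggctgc
IFI27, chr14:94110608-94110670, plus strand: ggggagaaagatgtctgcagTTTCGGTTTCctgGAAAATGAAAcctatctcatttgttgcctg
EPSTI1, chr13:42992262-42992311, minus strand: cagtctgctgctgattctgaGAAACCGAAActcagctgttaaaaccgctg
BST2, chr19:17405725-17405780, minus strand: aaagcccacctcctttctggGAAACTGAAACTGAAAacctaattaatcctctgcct
DDX60, chr4:168318776-168318860, minus strand: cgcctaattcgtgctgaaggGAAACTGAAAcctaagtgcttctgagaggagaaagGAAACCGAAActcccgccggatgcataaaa
SAMD9, chr7:93118086-93118135, minus strand: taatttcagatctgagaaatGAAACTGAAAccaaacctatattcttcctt
TNFSF10, chr3:172523588-172523637, minus strand: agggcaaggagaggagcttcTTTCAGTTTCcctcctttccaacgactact

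The stretches of ISG15 and BST2 hold 2 overlapping copies of the word, IFI6 holds 3 separate copies, and IFI27 holds 1 copy on each strand. TNFSF10, whose values ran the other way, holds the word too, as do TRIM5 and NMI, whose values were near 0. Members with the word had a median log2 fold change of 0.76 in control glucose and 0.63 in high glucose. The 11 matched members without it, which are CMPK2, HERC6, UBE2L6, IFI35, SAMD9L, SP110, SP100, ADAR, PNPT1, XAF1 and CXCL11, had medians of 0.84 and 0.66. A match describes these letters in this window and is not evidence of binding, and the lack of a match says only that these letters are not in this window.

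The MX proteins, dynamin-like GTPases that trap incoming viral particles, gave some of the largest differences. MX1 (hg19, chromosome 21, 42792520 to 42831141) measured 89.9, 110 and 90.0 CPM with non-silencing siRNA in control glucose and 307, 376 and 441 CPM with siGlut1. High glucose gave 87.0 and 54.5 CPM against 224, 428 and 189 CPM. The groups did not overlap in either medium, and the rise was 3.89-fold in control glucose (log2 1.96 ± 0.28 SE, adjusted p = 0.00703) and 3.96-fold in high glucose (1.99 ± 0.33, adjusted p = 0.0114). MX2, which blocks nuclear import of HIV-1, lies 11651 bases away at 42733950 to 42780869. Its RNA per length was far lower (a mean of 1.30 deposited RPKM, which scales reads by gene length and depth, against 25.4 RPKM for MX1 with non-silencing siRNA in control glucose). It measured 4.07, 4.25 and 3.79 CPM in that group and 21.1, 26.5 and 33.1 CPM with siGlut1. In high glucose MX2 measured 2.63 and 1.58 CPM with non-silencing siRNA and 12.5, 31.3 and 6.14 CPM with siGlut1, with replicate 2 of the last group far above the other two. MX2 had the largest rise of the members in both media, 6.67-fold (log2 2.74 ± 0.47, adjusted p = 0.0136) and 7.90-fold (2.98 ± 0.58, adjusted p = 0.0213). GBP1, a guanylate-binding GTPase that coats microbes and their vacuoles, did not pass, at log2 0.31 ± 0.12 (adjusted p = 0.183) and 0.23 ± 0.13 (adjusted p = 0.350). GBP1 has close paralogs, and the labels do not say how reads matching several genes were counted.

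RSAD2 (viperin), which turns CTP into a chain terminator of viral RNA synthesis, and CMPK2, a mitochondrial kinase of the same nucleotides, are neighbours on chromosome 2, 11030 bases apart. RSAD2 (7017796 to 7038363) measured 3.11, 5.06 and 4.73 CPM with non-silencing siRNA and 16.5, 21.7 and 40.4 CPM with siGlut1 in control glucose. In high glucose the values were 3.25 and 1.74 CPM against 12.3, 29.7 and 8.24 CPM. The lowest siGlut1 library stood above the highest non-silencing library in both media, although the siGlut1 libraries differed widely among themselves. The rise of RSAD2 was 6.10-fold (log2 2.61 ± 0.48, adjusted p = 0.0186) and 6.71-fold (2.75 ± 0.59, adjusted p = 0.0280). CMPK2 rose 5.28-fold (2.40 ± 0.43, adjusted p = 0.0161) and 5.89-fold (2.56 ± 0.52, adjusted p = 0.0229). These 2 genes and MX2 were among the members with least RNA per length, at 0.921 RPKM for CMPK2, 1.16 RPKM for RSAD2 and 1.30 RPKM for MX2 with non-silencing siRNA in control glucose.

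ISG15 is a ubiquitin-like protein that is joined to viral and host proteins by the enzymes UBE2L6 and HERC5, and removed by USP18, which also dampens the interferon receptor. ISG15 (chromosome 1, 948847 to 949919) measured 101, 109 and 84.9 CPM with non-silencing siRNA and 250, 293 and 365 CPM with siGlut1 in control glucose. The values in high glucose were 64.2 and 72.1 CPM against 145, 309 and 165 CPM. Every siGlut1 library was above every non-silencing library of its medium. The rise was 3.08-fold (log2 1.62 ± 0.25, adjusted p = 0.00860) and 3.03-fold (1.60 ± 0.29, adjusted p = 0.0154). UBE2L6, the conjugating enzyme, rose 1.82-fold (adjusted p = 0.0116) and 1.65-fold (adjusted p = 0.0327). HERC6, a HECT-type ligase next to HERC5 on chromosome 4, rose 2.31-fold (adjusted p = 0.0154) and 2.34-fold (adjusted p = 0.0229). USP18 rose 2-fold in control glucose (adjusted p = 0.0323), with a value of 1.90-fold in high glucose that did not pass (adjusted p = 0.0583). HERC5, the main ISG15 ligase of human cells, passed in neither medium, at log2 0.71 ± 0.17 (adjusted p = 0.0531) and 0.40 ± 0.20 (adjusted p = 0.276).

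Of the 6 genes of the IFI series and their partners, 4 rose in control glucose and 3 in high glucose. IFI27, a small membrane protein of mitochondria and endoplasmic reticulum, had the most RNA per length of all members, with group means of 464 ± 68.6 RPKM without and 1131 ± 44.3 RPKM with siGlut1 in control glucose (SD, n = 3 each). IFI27 (chromosome 14, 94577079 to 94583033) measured 365, 326 and 264 CPM with non-silencing siRNA and 761, 793 and 807 CPM with siGlut1. In high glucose the values were 318 and 207 CPM against 593, 733 and 527 CPM. The siGlut1 libraries in control glucose were closer together for IFI27 than for the other genes above, and its adjusted p was the lowest among the members in both media (0.00412 and 0.00904), with rises of 2.47-fold and 2.35-fold. IFI44L, a GTP-binding relative of IFI44, measured 73.7, 98.7 and 70.2 CPM without and 240, 273 and 304 CPM with siGlut1 in control glucose. High glucose gave 83.5 and 47.8 CPM against 201, 278 and 161 CPM. It rose 3.37-fold (adjusted p = 0.00529) and 3.25-fold (adjusted p = 0.00978). IFI44 itself, 3647 bases away on chromosome 1, rose 1.72-fold in control glucose (adjusted p = 0.0473) and had a value of 1.46-fold in high glucose (adjusted p = 0.164). IFI6, an endoplasmic reticulum protein that protects against flaviviruses, rose 2.94-fold (adjusted p = 0.00915) and 2.70-fold (adjusted p = 0.0201). IFI35 and NMI, which bind each other, did not pass: IFI35 had log2 values of 0.84 and 0.54, and NMI 0.10 and -0.03.

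**Figure D2:**
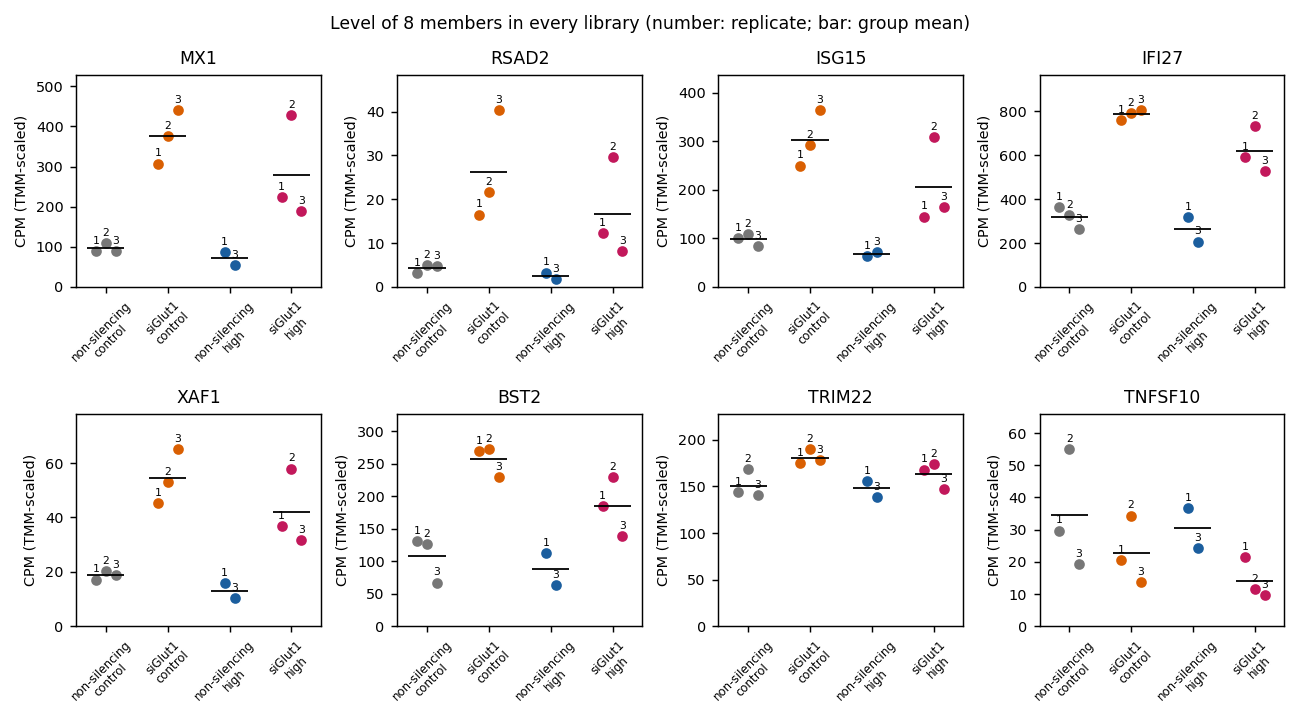
CPM on TMM-scaled library sizes of 8 members in every library, by group; numbers are replicate numbers and bars are group means. The siGlut1 points of MX1, RSAD2, ISG15, IFI27, XAF1 and BST2 lie above the non-silencing points of the same medium, while TRIM22 in high glucose and TNFSF10 in control glucose overlap.

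PARP9 and DTX3L form an ADP-ribosyltransferase and ubiquitin ligase complex that acts on histones, and PARP14 is a related transferase nearby on chromosome 3. PARP9 measured 73.6, 92.8 and 73.8 CPM without and 125, 134 and 153 CPM with siGlut1 in control glucose, and 81.0 and 66.5 against 107, 165 and 101 CPM in high glucose. It rose 1.72-fold in control glucose (log2 0.78 ± 0.17, adjusted p = 0.0386), and its value of 1.68-fold in high glucose did not pass (adjusted p = 0.0583). PARP14 measured 170, 195 and 144 CPM against 233, 234 and 222 CPM in control glucose, and 158 and 141 against 236, 285 and 180 CPM in high glucose. Its groups did not overlap, yet it passed in neither medium (log2 0.44 ± 0.15, adjusted p = 0.143; 0.64 ± 0.17, adjusted p = 0.0572). DTX3L had log2 values of 0.43 and 0.54 (adjusted p = 0.110 and 0.0693). PARP9 and DTX3L overlap by 339 bases, and since the labels do not say whether counting used strand, reads from the overlap could be assigned to either.

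SAMD9 and SAMD9L, paralogs 12032 bases apart on chromosome 7 that restrict poxviruses by blocking translation, passed in neither medium with edgeR and in both with DESeq2. SAMD9L measured 51.0, 65.7 and 42.3 CPM against 77.4, 87.4 and 76.4 CPM in control glucose, and 57.2 and 42.3 against 74.0, 100 and 62.0 CPM in high glucose (log2 0.60 ± 0.19 and 0.66 ± 0.22, adjusted p = 0.119 and 0.112). The groups did not overlap in either medium. SAMD9 had log2 values of 0.63 and 0.78, the second with an adjusted p of 0.0502. EPSTI1, named for epithelial and stromal interaction, rose in both media, from 8.91, 10.6 and 8.20 CPM to 20.5, 24.4 and 26.4 CPM in control glucose (2.57-fold, adjusted p = 0.0167). In high glucose its values were 8.34 and 5.29 against 14.1, 24.4 and 12.3 CPM (2.48-fold, adjusted p = 0.0297).

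Among 3 TRIM ubiquitin ligases 0 were called in either medium with edgeR or DESeq2, and 2 had an unadjusted p under 0.05 in control glucose and 0 in high glucose. TRIM22 measured 144, 169 and 141 CPM against 175, 190 and 178 CPM in control glucose, a narrow gap between groups (log2 0.26 ± 0.09, 95% interval 0.06 to 0.46, adjusted p = 0.154). The high-glucose values were 156 and 139 against 168, 174 and 147 CPM, which overlap (0.14 ± 0.10, adjusted p = 0.462). TRIM21, the cytosolic antibody receptor, measured 35.1, 40.3 and 43.4 CPM against 43.7, 46.2 and 53.0 CPM in control glucose, and 42.8 and 37.5 against 41.4, 50.7 and 39.3 CPM in high glucose (log2 0.26 and 0.12). TRIM5, which binds retroviral capsids, had log2 values of 0.06 and -0.03, with 95% intervals of -0.07 to 0.19 and -0.18 to 0.12. The interval for TRIM5 was the narrowest of these and lay below the values of all 17 members called in control glucose.

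SP100, a scaffold of PML nuclear bodies, and its relative SP110 passed in neither medium with edgeR, although both had an unadjusted p under 0.05 in both media and DESeq2 called 1 of the 2 in each. SP100 measured 184, 192 and 208 CPM against 235, 224 and 267 CPM in control glucose, and 191 and 176 against 212, 271 and 214 CPM in high glucose (log2 0.31 ± 0.10 and 0.34 ± 0.12, adjusted p = 0.135 and 0.128). SP110 measured 23.7, 28.0 and 26.9 CPM against 33.6, 37.4 and 46.9 CPM in control glucose, and 25.4 and 20.8 against 31.1, 47.0 and 29.7 CPM in high glucose (0.59 ± 0.18 and 0.64 ± 0.20, adjusted p = 0.103 and 0.102). In both genes and both media the siGlut1 libraries lay wholly above the others.

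Of the 4 enzymes that act on RNA, ADAR, which converts adenosine to inosine in double-stranded RNA and so hides self RNA from sensors, was called in high glucose. In control glucose it measured 435, 472 and 395 CPM with non-silencing siRNA and 572, 538 and 577 CPM with siGlut1, groups that did not overlap but did not pass (log2 0.37 ± 0.09, adjusted p = 0.0582). In high glucose its values were 435 and 379 CPM against 561, 661 and 537 CPM, and rose 1.44-fold (0.53 ± 0.11, adjusted p = 0.0237). DDX60, a helicase that aids RIG-I-like sensing, measured 42.5, 51.5 and 40.2 CPM against 67.7, 68.2 and 72.7 CPM in control glucose (0.64 ± 0.17, adjusted p = 0.0686). In high glucose it measured 51.3 and 38.1 against 63.7, 83.6 and 50.4 CPM, so the groups overlapped (0.56 ± 0.19, adjusted p = 0.128). ISG20, an exonuclease that degrades viral RNA, had log2 values of 0.55 and 0.61, and PNPT1, the mitochondrial polynucleotide phosphorylase, 0.41 and 0.39. Neither passed in either medium.

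Of 5 membrane, secreted and processing proteins, BST2 and PLSCR1 rose in control glucose, and 0 were called in high glucose with edgeR, where 2 had an unadjusted p under 0.05 and DESeq2 called 2. BST2 (tetherin) holds budding virions at the cell surface. It measured 131, 126 and 67.0 CPM without and 269, 272 and 229 CPM with siGlut1 in control glucose, where non-silencing replicate 3 was the low one. In high glucose it measured 112 and 63.4 against 185, 229 and 138 CPM. The rise in control glucose was 2.38-fold (log2 1.25 ± 0.27, adjusted p = 0.0325), and the value in high glucose was 2.09-fold (1.06 ± 0.31, adjusted p = 0.0787). PLSCR1, a phospholipid scramblase, rose 1.66-fold in control glucose (adjusted p = 0.0262) and had a value of 1.53-fold in high glucose (adjusted p = 0.0666). The secreted glycoprotein LGALS3BP had log2 values of 0.89 and 0.68, and the aminopeptidase LAP3 of 0.20 and 0.16. RTP4, a receptor chaperone, had the least RNA per length of the members (0.651 RPKM with non-silencing siRNA in control glucose) and values of 0.90 and -0.03, with 95% intervals of 0.08 to 1.73 and -0.98 to 0.91.

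XAF1 and TNFSF10 act on cell death, and their values ran in opposite directions. XAF1, which counters the caspase inhibitor XIAP, measured 17.1, 20.2 and 18.8 CPM without and 45.2, 53.1 and 65.1 CPM with siGlut1 in control glucose. High glucose gave 15.8 and 10.2 against 36.8, 58.0 and 31.6 CPM. It rose 2.92-fold (log2 1.54 ± 0.23, adjusted p = 0.00756) and 3.25-fold (1.70 ± 0.27, adjusted p = 0.00954). TNFSF10, the death ligand TRAIL, measured 29.7, 55.0 and 19.2 CPM without and 20.6, 34.4 and 13.6 CPM with siGlut1 in control glucose, which overlap. In high glucose it measured 36.8 and 24.2 CPM against 21.4, 11.5 and 9.59 CPM, with every siGlut1 library lower. It passed in neither medium (log2 -0.58 ± 0.42, adjusted p = 0.522; -1.12 ± 0.47, adjusted p = 0.205).

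The chemokines CXCL10 and CXCL11, which attract T cells through CXCR3, lie 10151 bases apart on chromosome 4 and were weakly expressed. CXCL10 measured 0.887, 2.07 and 1.88 CPM against 2.49, 3.77 and 5.04 CPM in control glucose, and 1.5 and 0.869 against 2.04, 4.23 and 2.19 CPM in high glucose. The groups did not overlap, but the errors were wide (log2 1.22 ± 0.39, adjusted p = 0.120; 1.25 ± 0.46, adjusted p = 0.149). CXCL11 measured 3.15, 4.00 and 3.04 CPM against 5.71, 6.76 and 5.87 CPM, and 2.92 and 1.58 against 3.46, 5.03 and 3.28 CPM. Its values of 0.86 ± 0.23 and 0.80 ± 0.27 did not pass either (adjusted p = 0.0704 and 0.119). With edgeR 0 of the 2 chemokines were called, while both had an unadjusted p under 0.05 and both were called by DESeq2 in each medium.

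**Figure D3:**
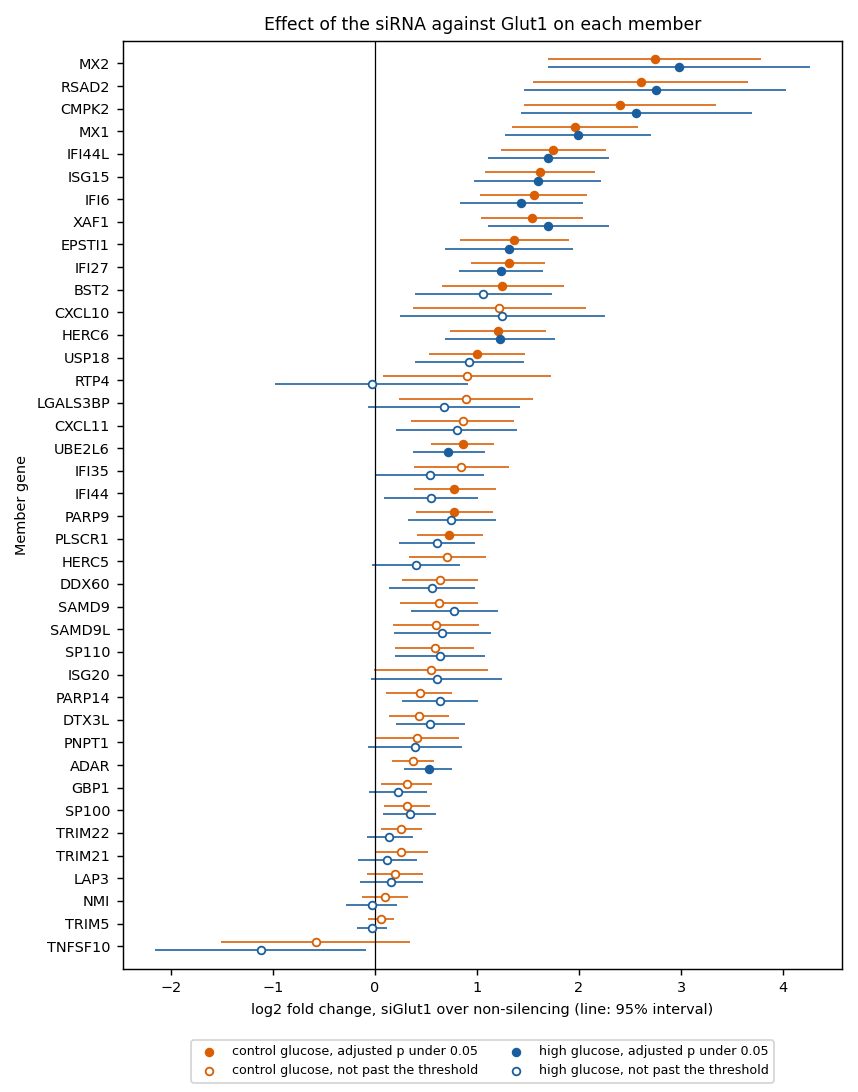
Log2 fold change of siGlut1 over non-silencing siRNA for each member in control glucose (orange) and high glucose (blue), with 95% intervals from the edgeR fit; filled points have an adjusted p under 0.05. Values run from -0.58 to 2.74 in control glucose and from -1.12 to 2.98 in high glucose, and the blue intervals are the wider ones.

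Within a group the members shifted together from library to library. In siGlut1 control glucose replicate 3 held the highest value for 30 of the 40 members, and replicate 1 the lowest for 31. In siGlut1 high glucose replicate 2 was highest for 38 and replicate 3 lowest for 33, while with non-silencing siRNA in high glucose replicate 1 was highest for 36. The members' median log2 level, relative to the non-silencing control-glucose mean, was 0.57, 0.75 and 0.95 in the siGlut1 control-glucose libraries. It was 0.42, 0.88 and 0.22 in the siGlut1 high-glucose libraries, and -0.02 and -0.30 in the non-silencing ones of that medium. So siGlut1 high glucose replicates 1 and 3 stood lower than any siGlut1 library in control glucose, and replicate 2 stood within their range.

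Summed over the 40 members, CPM were 3015 ± 266 (SD, n = 3) with non-silencing siRNA and 5547 ± 423 (n = 3) with siGlut1 in control glucose, a ratio of 1.84. In high glucose the sums were 2682 ± 382 (n = 2) and 4673 ± 1058 (n = 3), a ratio of 1.74. The members made up 0.282 to 0.323% of the counts with non-silencing siRNA and 0.502 to 0.608% with siGlut1 in control glucose. Of the gain in summed CPM there, IFI27 gave 18.5%, IFI6 12.9%, MX1 11%, ISG15 8.06% and IFI44L 7.54%. Per length, the members highest with non-silencing siRNA in control glucose were IFI27, IFI6 at 186 ± 48.2 RPKM, ISG15 at 140 ± 14.6 RPKM and BST2 at 109 ± 34.3 RPKM. IFI6 and ISG15 differed by less than the spread of IFI6, and so did ISG15 and BST2 by less than that of BST2. With siGlut1 their means were 540, 426 and 256 RPKM. Over the 40 members, Spearman's rho between gene length and log2 fold change was -0.0604 in control glucose and 0.238 in high glucose, a description over genes that share the same libraries.

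The number of calls depended on single libraries. The 17 calls in control glucose became 6 without non-silencing control replicate 1, 11 without siGlut1 control replicate 2 and 24 without siGlut1 high replicate 2. MX1, ISG15, IFI44L, IFI6, IFI27 and XAF1 passed in each of the 20 other settings tried. The 13 calls in high glucose became 0 without non-silencing high replicate 3, 3 without non-silencing high replicate 1 and 8 without siGlut1 high replicate 2. The first 2 of these settings leave 1 library in that group, which is then assumed to vary like the others, and the 3 calls kept were IFI44L, IFI27 and XAF1. No called member changed sign in any setting.

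**Figure D4:**
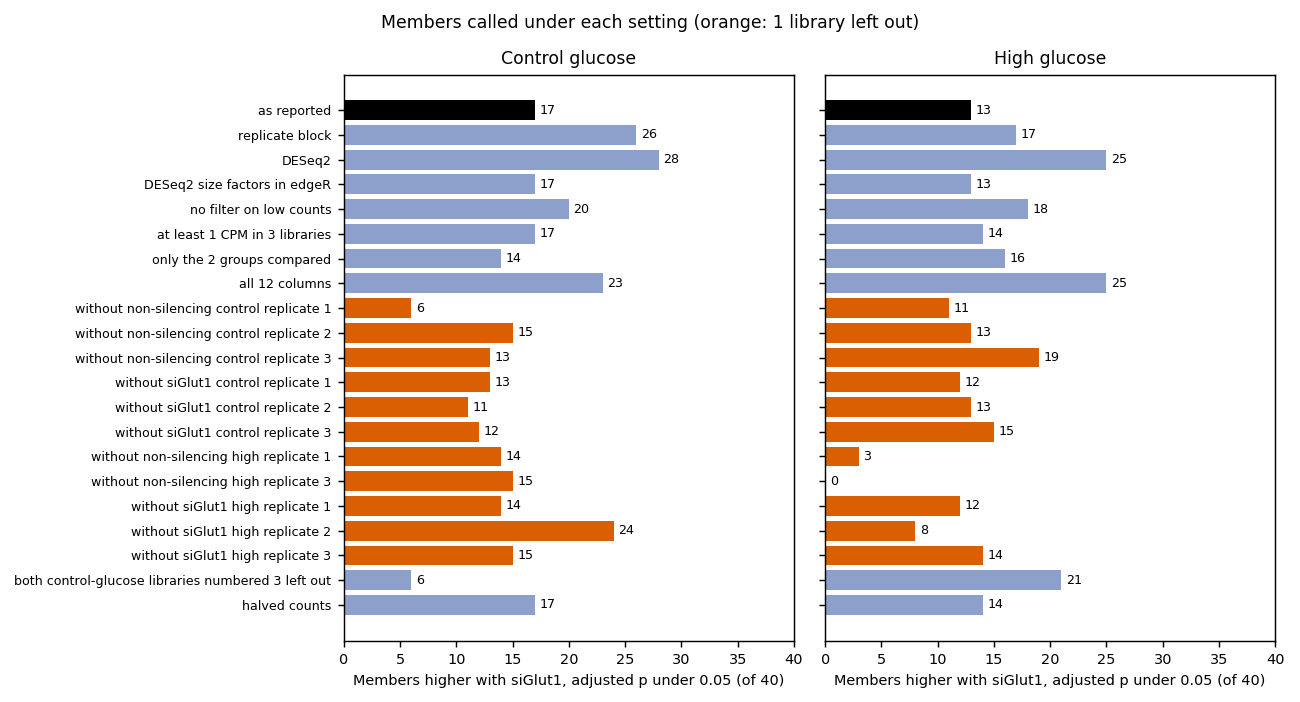
Number of the 40 members called higher with siGlut1 (adjusted p under 0.05; bars start at 0) as reported and under 20 other settings, in control glucose (left) and high glucose (right); orange bars leave out 1 library. Counts run from 6 to 28 in control glucose and from 0 to 25 in high glucose.

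Whether the effect of siGlut1 differed between the media was tested by an interaction term. It called 0 of the 40 members, as it did 0% of all genes, with edgeR and with DESeq2, and 0 members had an unadjusted p under 0.05 (2.75% of all genes did). The members' median difference of log2 fold change, high minus control glucose, was -0.05. The 95% intervals were wide, with median bounds of -0.66 and 0.62 and extremes of -2.19 for RTP4 and 1.81 for MX2. Differences within the interval of a gene are not excluded for that gene. Leaving out 1 library moved the median difference, which was -0.29 without siGlut1 high replicate 2. Its sign turned in some cases, as at 0.15 without non-silencing high replicate 1 and 0.08 without siGlut1 high replicate 3.

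High glucose alone called 0 of the 40 members with non-silencing siRNA (0% of all genes; n = 3 and 2) with edgeR, and DESeq2 also called 0 (0.23% of the genes it tested). The median log2 fold change was -0.18, 33 of 40 values were negative, and the lowest adjusted p was 0.674, that of TRIM5 (log2 0.25), the single member with an unadjusted p under 0.05 (5.4% of all genes). In 8 members both high-glucose libraries lay below all control-glucose libraries, namely MX1, MX2, CMPK2, ISG15, IFI35, ISG20, XAF1 and CXCL11, beside 9.23% of all genes. The median was -0.03 without non-silencing high replicate 3 and -0.32 without replicate 1.

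With siGlut1, high glucose again called 0 of the 40 members with edgeR and 0 with DESeq2, where edgeR called 0.014% of all genes and DESeq2 3.57% of those it tested. The median was -0.25, 34 of 40 values were negative, and 7 members had an unadjusted p under 0.05, a share near the 15.2% of all genes. UBE2L6 had the lowest adjusted p, at 0.229 (log2 -0.41). In UBE2L6, IFI6, IFI27, TRIM22, BST2 and CXCL11, which is 6 members, every high-glucose library lay below every control-glucose library, beside 11.7% of all genes. Leaving out siGlut1 high replicate 2, the highest of its group for most members, moved the median to -0.48, while it was -0.13 without siGlut1 high replicate 3 and -0.15 without siGlut1 control replicate 3. These glucose comparisons use the same libraries as the siRNA comparisons above and are not independent of them.

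**Figure D5:**
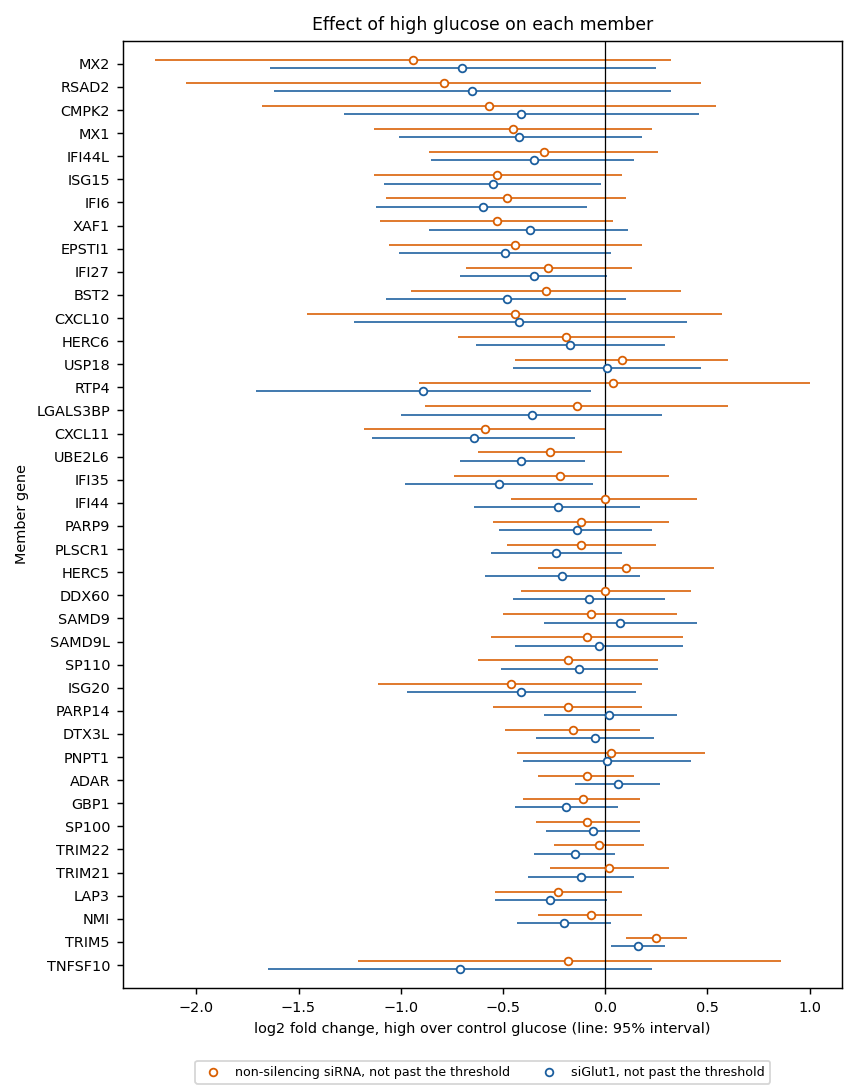
Log2 fold change of high over control glucose for each member with non-silencing siRNA (orange) and siGlut1 (blue), with 95% intervals; open points did not pass the threshold. All points are open, and most lie between -1 and 0.

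Genes that carry the interferon signal were read beside the members. Of 21 interferon genes 17 had 0 counts in all libraries, IFNB1 had 30 counts in all over 6 libraries, and IFNE, with 242 counts, was the only one tested and did not pass (log2 -0.04 and 0.56). Of 8 receptor and Janus kinase genes tested, 0 rose in either medium with edgeR or DESeq2, while DESeq2 called 1 lower in control glucose and 2 lower in high glucose. An unadjusted p under 0.05 was seen for 2 and 3 of them, of which 0 and 1 had a positive value. IL10RB, a subunit of the interferon lambda receptor, fell by 0.40 on the log2 scale in high glucose (edgeR, adjusted p = 0.0256). Its value in control glucose was -0.24 (adjusted p = 0.121). IFNGR1 had values of -0.36 and -0.52 that did not pass (adjusted p = 0.157 and 0.0616). JAK1 and IFNAR1, which had the most counts of the 8 genes, had log2 values of 0.03 and -0.12 in control glucose and 0.23 and -0.12 in high glucose. Among the transcription factors of the pathway, IRF7, which drives interferon alpha genes, rose in control glucose (log2 1.06 ± 0.20, adjusted p = 0.0220), and so did STAT2 (0.44 ± 0.09, adjusted p = 0.0265). In high glucose IRF7 passed (1.01 ± 0.24, adjusted p = 0.0376), and STAT2 had a value of 0.37 ± 0.10 that did not (adjusted p = 0.0651). Both are themselves interferon-stimulated. Of 5 brakes on the pathway, such as PTPN1 and SOCS3, 0 passed in either medium with edgeR. There 2 and 1 had an unadjusted p under 0.05, DESeq2 called 0 and 1, PTPN1 had log2 values of -0.01 and 0.12, and SOCS3 of 0.41 and 0.49.

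Further interferon-stimulated families outside the list were counted in the same fit. In the IFIT, IFITM and OAS families 8 of 11 rose in control glucose and 6 in high glucose with edgeR, and 9 in each medium with DESeq2. Their medians were 1.16 and 1.12, led by IFITM1 (2.05 and 2.07) and IFIT1 (1.98 and 2). Of 14 sensors and adaptors tested, DHX58 (0.79) and EIF2AK2 (0.70) rose in control glucose. In high glucose EIF2AK2 rose (0.83), and TMEM173, which encodes STING, fell by 0.50 on the log2 scale. These are edgeR calls, while DESeq2 called 5 sensors and adaptors higher and 1 lower in control glucose, and 4 and 1 in high glucose. Of 15 genes of MHC class I presentation, HLA-B, TAP1, NLRC5 and B2M rose in control glucose and ERAP1 in high glucose with edgeR. The medians of the 15 were 0.40 and 0.31. An unadjusted p under 0.05 was seen for 10 and 8 of them, of which 9 and 6 had a positive value. DESeq2 called 6 and 4 of the 15 higher and 0 lower. Of 8 tested genes that respond mainly to interferon gamma 0 passed with edgeR, and their medians were 0.05 and 0.14. In each medium 1 of them had an unadjusted p under 0.05, with a negative value, and DESeq2 called 0 in control glucose and 1, lower, in high glucose. GBP2, the one with most counts, had values of -0.14 and -0.37.

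Members often lie beside each other, and the nearest tested genes in none of the lists were read beside them. Over 64 such neighbours at a median distance of 63749.5 bases, the median log2 fold change was 0.00842 in control glucose and -0.0583 in high glucose. In control glucose 1 was called higher and 1 lower, where 244 and 180 of all 14324 genes were. In high glucose 4 were called higher and 3 lower, where 354 and 235 of all genes were. TNFSF11, which encodes the cytokine RANKL and lies 279973 bases from EPSTI1, was the neighbour with the largest rise, at 1.84 ± 0.30 (adjusted p = 0.0116) and 2.66 ± 0.38 (adjusted p = 0.00635).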

How the data were processed

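The deposited table lists gene entries with hg19 coordinates and 2 values per sample. Its counts are whole numbers that had not been normalised, per the file headers. Its RPKM values, made by the authors from counts and gene length, per the file headers, were used only to compare levels between genes. The submitters' processing notes name hg19 and DESeq2. The sources used here give neither aligner, counter, annotation nor strand setting. Both TruSeq stranded mRNA and SMARTER kits are named in the labels, with no link to single libraries. The number of value columns without a sample was 0.

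Entries on the Y chromosome and 1 further sex-linked gene, 124 in all, were left out. The 11 libraries (without non-silencing high glucose replicate 2) were fitted together by group, with no replicate term, using edgeR 4.0.16 in R 4.3.3. Low counts were removed by filterByExpr, and TMM factors were 0.975 to 1.03. The quasi-likelihood fit had 7 residual degrees of freedom and a median prior of 4.46. F tests were two-sided and Benjamini-Hochberg adjusted over all 14324 genes of a comparison. The standard error is the size of the log2 fold change over the square root of F. CPM use TMM-scaled library sizes. The procedure was tested on simulated counts. DESeq2 1.42.0 and further settings were alternatives.

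All 40 members are named. Values in every library are given for the member with the highest mean CPM and the one with the largest change in control glucose of each role group, and for TNFSF10, chosen after its values were seen. Pathway lists name up to 4 genes past the threshold in control glucose, or else those with the highest CPM. Further genes were named after their values were seen (IL10RB, IFNGR1, TMEM173, IFNE, IFNB1, ERAP1 and markers at 0). Members and lists were chosen with earlier results of these data known. A promoter word was searched in the RefSeq table, whose GRCh38.p14 coordinates are not to be compared with hg19 ones.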

Additional observations from a re-analysis of the deposited data

How the results depend on the processing

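Among the members called in either medium there were 0 changes of sign over 20 other settings, and the medians with 1 library left out were 0.65 to 0.87 in control glucose and 0.44 to 0.80 in high glucose. The count of 17 higher members in control glucose became 28 with DESeq2, and 6 without both control-glucose libraries numbered 3, an alternative added after the data were seen. With 1 library left out it ran from 6 to 24. The count of 13 in high glucose became 25 with DESeq2, 25 with all 12 columns (counting the column that equals a mean) and 21 without both control-glucose libraries numbered 3, and ran from 0 to 19 with 1 library left out. The interaction median of -0.05 ran from -0.29 to 0.15. The cause of these moves was not tested. Halving the even counts gave 17 and 14.

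The labels do not say that replicate numbers pair libraries. Same-numbered libraries' deviations correlated at 0.093 to 0.535 over 3 pairs in control glucose and 0.192 to 0.231 over 2 pairs in high glucose, where the 2 non-silencing deviations are opposites by construction. In control glucose 4 of 6 libraries correlated best with their own number, and in high glucose all 4 that had a same-numbered partner did, a hint from the data and not the design. With a replicate block 26 members were called higher in control glucose, and 17 higher and 1 lower (TNFSF10, log2 -1.33, adjusted p = 0.0339 with edgeR) in high glucose.

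With 2 non-silencing libraries in high glucose, that medium's errors are the larger ones. Intervals cover the spread between these libraries only. For weakly expressed members such as RTP4 and CXCL10, few counts also limit precision.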
